A study of Mus musculus with 72 samples.

Results

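Replication-dependent histone genes were examined in the poly(A) RNA of mouse embryonic stem cells. They were taken as every gene whose symbol begins with Hist1h, Hist2h, Hist3h or Hist4h in the Gencode annotation of GRCm38, which gave 68 of the 51826 genes in the count files. Of these, 65 are annotated as protein coding and 3 as pseudogenes (Hist1h2aj, Hist3h2bb-ps and Hist1h2al). By symbol, 6 belong to the class of the linker histone H1, 20 to H2A, 17 to H2B, 12 to H3 and 13 to H4, with the 3 pseudogenes included. The 6 variant genes H2afz, H2afx, H2afy, H3f3a, H3f3b and H1f0 served as a contrast.

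Replication-dependent histone genes make the bulk of histone protein while DNA is copied in S phase. Their transcripts have no introns, and in place of a poly(A) tail they end just after a short stem-loop that the stem-loop binding protein Slbp holds for processing, export and translation. The variant genes are used throughout the cell cycle, carry introns in most cases and make polyadenylated mRNA. Histone RNA in a poly(A)-selected library therefore comes from molecules that carry a tail or that were carried along with the tailed RNA, and the libraries do not tell these apart.

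The cells were the E14TG2a line, grown in 2i + LIF medium and exposed to 4-thiouridine (4sU), a nucleoside that new RNA takes up and that is read as T-to-C (T2C) conversions after alkylation (SLAM-seq). Each culture was split by detergent extraction into nucleus, cytosol, membrane and an unfractionated whole-cell extract, and poly(A) RNA was sequenced from each. There were 72 libraries, 18 per fraction, with 2 cultures at 15 min (replicates 1 and 2), 4 at 20 min (1 to 4), 2 at 30 min (1 and 2), 2 at 40 min (3 and 4), 4 at 60 min (3 to 6) and 4 at 120 min (3 to 6). The labels give 500 µM 4sU for 15 to 40 min and 100 µM for 60 and 120 min, whereas the study's methods give the higher dose for part of the cultures of 60 min and longer as well. Replicates 3-4 and 5-6 at 60 and 120 min may therefore differ in dose as well as in the pair they belong to. These cannot be told apart. The mean conversion rate in replicates 3-4 was 3.08, 5.09, 7.43 and 10.7% at 20, 40, 60 and 120 min. In replicates 5-6 it was 3.01% at 60 min and 3.63% at 120 min. The study reports a rate that rose with time at its higher dose and stayed level at its lower dose. Which dose each pair received was not tested. All samples are of 1 cell line, no unlabeled library was used here, and cells were not sorted by cell cycle stage.

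The libraries held 13185351 to 52975732 counts assigned to genes (median 21494524.5). The nuclear check genes Malat1, Neat1 and Meg3 were higher in the nucleus than in the cytosol (3 of 3), the membrane check genes were higher in the membrane than in the cytosol (5 of 5) and the cytosolic check genes were lower in the nucleus (3 of 3). In whole cells Pou5f1 ranged from 640 to 1471 CPM (counts scaled to a common library total) and the fibroblast gene Col1a1 from 0.08 to 1.44 CPM. Pou5f1 is 1 of 7 stem cell markers and Col1a1 is 1 of 9 markers of other cells that were listed. The other markers are not given here. Between 19.4 and 34.9% of the counts in a library's count file were alignments to more than 1 place, which the counting assigned to no gene. CPM values refer to the library of 1 fraction, so a difference between fractions is one of share in the library and not of molecules per cell, and fewer cells in S phase cannot be told apart from less RNA per cell. Replicates were independently passaged cultures of 1 line. The p-values rest on the spread between libraries of the same fraction, time and replicate pair, pooled over all such groups. Spread between replicate pairs does not enter them, also where pairs are compared. The main fits treated the fractions of a culture as independent.

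The stem-loop was searched for in the annotated transcripts, because it marks the end that a mature replication-dependent mRNA would have. It was found in 42 of the 68 genes, in 6 different spellings, and in H2afx among the 6 variants. Of all 21901 protein-coding genes, 130 (0.594%) held a match to the pattern searched for, whatever its spelling. The pattern was a perfect stem beginning with GG around a loop beginning with TT. One gene for each spelling and the variant are given with the stem-loop in capitals, 5 flanking bases on each side, and the position of the capitals in GRCm38.
Hist1h1c (H1, chr13:23739512-23739527, + strand): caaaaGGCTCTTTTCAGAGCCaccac
Hist1h3c (H3, chr13:23745047-23745062, - strand): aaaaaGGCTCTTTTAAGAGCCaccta
Hist1h4d (H4, chr13:23581950-23581965, + strand): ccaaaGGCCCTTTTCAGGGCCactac
Hist1h4i (H4, chr13:22040966-22040981, - strand): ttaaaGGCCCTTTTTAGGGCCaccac
Hist1h4j (H4, chr13:21735437-21735452, + strand): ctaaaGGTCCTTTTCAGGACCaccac
Hist2h2ac (H2A, chr3:96220418-96220433, - strand): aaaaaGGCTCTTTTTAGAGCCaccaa
H2afx (variant, chr9:44335240-44335255, + strand): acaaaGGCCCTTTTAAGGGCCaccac
All 7 genes are annotated with 1 exon. The first spelling was the most frequent (24 genes), followed by that of Hist1h4d (7 genes) and that of Hist1h3c (6 genes), while those of Hist1h4i and Hist1h4j were each in 2 genes and that of Hist2h2ac in 1.

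The annotation also showed which members could make a longer, tailed RNA. In 21 members a transcript ran more than 100 bases past the stem-loop, by 840 bases in Hist1h1c, 770 in Hist1h4d and 330 in Hist1h4i. A poly(A) signal (AATAAA or ATTAAA) stood in the last 50 bases of a transcript in 17 members, Hist1h1c and Hist1h4i among them. Most members have 1 exon (62 of 68), and 54 lie on chromosome 13, 10 on chromosome 3, 3 on chromosome 11 and 1 on chromosome 6. The genes are near copies of each other: in 29 members less than 50% of the 75-base windows of the transcript were found in no other gene, and the median over the members was 56.0%. In 23 members another gene overlapped on the other strand and in 7 on the same strand. The strand setting of the counting was not given in the sources used here, so counts of overlapping members are uncertain.

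Histone promoters carry CCAAT boxes and TATA boxes, and both were searched for in RefSeq promoters (GRCm38, 250 bases before to 50 after the start, either strand), of which 60 members and 5 variants had one. CCAAT was in 51 of 60 member promoters and in 41.1% of all 27025 promoters, and TATAAA was in 35 of 60 (58.3%) and in 15.7% of all promoters. Of the variant promoters 3 of 5 held CCAAT and 1 of 5 TATAAA. These are matches of letters and not measured sites.

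Replication-dependent histone genes took a small share of these libraries, and the variants a larger one. In whole cells the 68 genes summed to 85.7 CPM and the 6 variants to 2249 CPM on average over the 18 libraries, a 26.2-fold difference in reads. H3f3b, one of both H3.3 genes, ranged from 497 to 1100 CPM (median 947). H2afz, the gene of H2A.Z, ranged from 493 to 806 CPM (median 624), and H2afx, whose product is phosphorylated at DNA breaks, from 202 to 470 CPM (median 368). H3f3a, the other H3.3 gene, had a median of 180 CPM, H2afy, the gene of macroH2A1, 140 CPM and H1f0, a linker histone of resting cells, 52.0 CPM.

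Among the members, Hist1h1c, the gene of linker histone H1.2, was the most counted, with 5.46 to 27.7 CPM in whole cells (median 7.85, mean 9.87 ± 5.38, SD, n = 18), from 72 to 426 counts. The 11 next members by mean CPM were Hist1h2bc (4.90), Hist1h1a (4.23), Hist1h1d (4.17), Hist1h4d (3.61), Hist1h2af (3.17), Hist1h1b (2.99), Hist1h4i (2.88), Hist1h3c (2.83), Hist1h3e (2.48), Hist1h4a (2.21) and Hist1h1e (1.89). These 12 genes held 52.8% of the summed level of the 68, and 5 of them encode H1. Neighbours in this order overlapped widely: Hist1h2bc ranged from 2.22 to 15.5 CPM and Hist1h1a from 1.22 to 22.4 CPM.

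Levels of different genes were compared per kilobase of exon. On this scale the leading members were Hist1h2af (7.94 CPM per kb), Hist1h1c (6.33), Hist1h1a (5.71), Hist1h3c (4.50) and Hist1h2bc (4.24), and the lowest variant, H2afy, was at 24.8 CPM per kb. H2afz reached 368 CPM per kb, H3f3b 286 and H2afx 246. In all, 29 members averaged more than 1 CPM in whole cells and 14 less than 0.1 CPM, and 3 members (Hist2h2aa1, Hist1h2br and Hist2h3c1) had 0 counts in all 72 libraries, an observation limited to reads placed at a single site. A filter on low counts left 54 of the 68 members for testing. The 14 others were Hist1h1t, Hist1h2ba, Hist1h2aa, Hist2h2ab, Hist3h2bb-ps, Hist2h3c2, the 3 at 0 and Hist2h2aa2, Hist1h4m, Hist1h2bq, Hist1h2ao and Hist1h2ap, with 0 to 116 counts over all libraries.

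**Figure D1:**
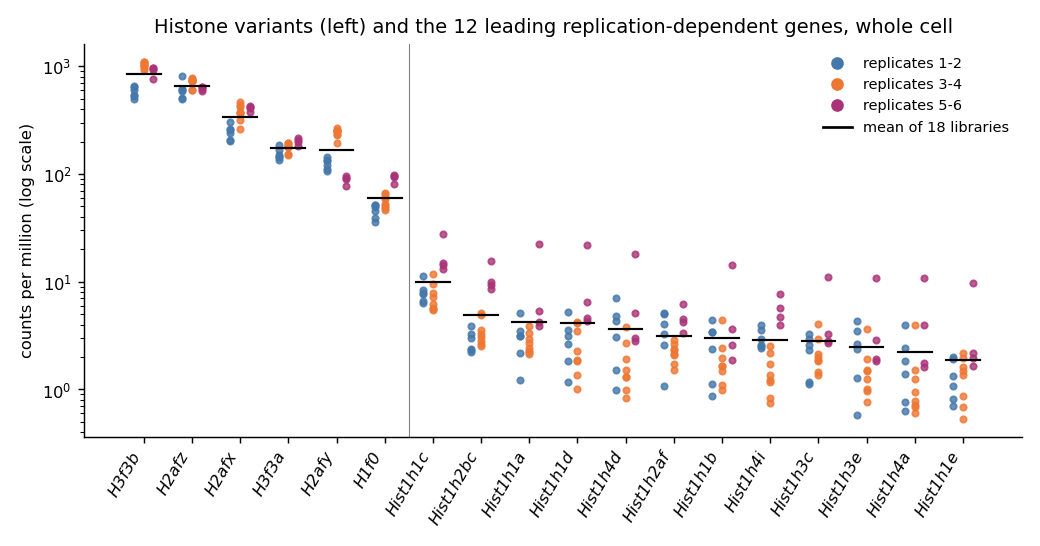
Level in whole cells (CPM, log scale) of the 6 variants, left of the vertical line, and of the 12 members with the highest mean, 1 point per library (n = 18) coloured by replicate pair, with the mean as a bar. Every variant lies above every one of the 12 members, and 1 library of replicates 5-6 (60 min, replicate 5) is the highest in each of the 12 members.

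The first comparison asked in which fraction the histone RNA took a larger share of the poly(A)-selected reads. The 8 conditions of labeling time and replicate pair used here leave out 120 min of replicates 3-4, since the study set aside cultures kept at its higher dose beyond 60 min and the dose of this pair is not settled; with all 9 conditions 42 members were lower and 2 higher. Over the 8 conditions, 43 of 54 members were lower in the nucleus than in the cytosol and 2 were higher (edgeR quasi-likelihood test, adjusted p under 0.05 and more than 0.5 on the log2 scale), against 29.6% of all 18902 genes tested that were lower and 36.8% that were higher (66.4% in either direction). The median log2 difference of the members was -0.93 and that of all genes 0.07. All 6 variants were lower too, with a median of -1.11.

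All 5 tested H1 genes were lower in the nucleus. Hist1h1c was at 4.85 to 22.8 CPM in the nucleus and 7.33 to 22.1 CPM in the cytosol, a log2 difference of -0.62 (SE 0.12, adjusted p = 1.145e-05), and was lower in the nucleus in 16 of 18 cultures although the ranges over cultures overlapped. Hist1h1a differed by -0.93 (SE 0.19), Hist1h1d by -0.87 (SE 0.25), Hist1h1b by -1.01 (SE 0.28) and Hist1h1e by -1.02 (SE 0.23). The smallest of these differences was that of the most counted gene.

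Of the core histones, which form the octamer that DNA winds around, 12 of 13 H2B genes, 9 of 10 H3 genes, 9 of 12 H4 genes and 8 of 14 H2A genes were lower in the nucleus. Hist1h2bc (H2B) was at 1.48 to 10.2 CPM in the nucleus and 2.98 to 17.8 CPM in the cytosol and differed by -1.26 (SE 0.14). It was lower in the nucleus in each of the 18 cultures. The largest differences belonged to Hist1h2bj (H2B, -1.85, SE 0.29), Hist1h2af (H2A, -1.73, SE 0.20) and Hist1h2bk (H2B, -1.58, SE 0.21). Of their 75-base windows 49.6, 29.5 and 27.4% were found in no other gene. Hist1h2af was at 0.318 to 2.47 CPM in the nucleus and 1.82 to 4.97 CPM in the cytosol, lower in 17 of 18 cultures. In Hist1h4d (H4) the difference was -1.21 (SE 0.26), in Hist1h3c (H3) -0.65 (SE 0.19), in Hist1h3e (H3) -0.74 (SE 0.26) and in Hist1h4a (H4) -0.83 (SE 0.31). Hist1h4i (H4) differed by -0.43 (SE 0.11), which passed the p threshold but not that on size.

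The 2 members that were higher in the nucleus were Hist2h2be and Hist1h2aj. Hist2h2be (H2B) was at 0.834 to 2.64 CPM in the nucleus and 0.0828 to 1.46 CPM in the cytosol, a log2 difference of 1.02 (SE 0.21, adjusted p = 2.295e-05), and higher in the nucleus in 18 of 18 cultures. Its transcript of 2620 bases has a poly(A) signal and no stem-loop match, and all of its 75-base windows were unique. The pseudogene Hist1h2aj rested on few reads, with 0.0833 to 1.35 CPM in the nucleus and 0 to 0.595 CPM in the cytosol. Its difference was 0.82 (SE 0.38, adjusted p = 0.0410), it was higher in 10 of 18 cultures, and it turned to -0.46 in replicates 1-2 alone and -0.24 in replicates 5-6 alone. The gene shares most of its sequence with other genes.

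The members were also set apart by the structure of the annotated transcript. The median difference was -0.91 in the 34 tested members with a stem-loop and -1.01 in the 20 without. It was -0.79 in the 13 with a poly(A) signal and -0.97 in the 41 without. Some members without a stem-loop have short annotated transcripts, such as Hist1h4k (312 bases) and Hist1h2bl (381 bases). Such transcripts may end before the place of a stem-loop or signal, so both splits also depend on how far the annotation reaches. In members with 50% or more unique windows 29 of 34 were lower (median -0.93), and in the others 14 of 20 (median -0.94). Leaving out members that overlap another gene left 30 of 35 lower, with a median of -0.93.

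Among the variants H3f3a showed the largest difference. It was at 56.6 to 157 CPM in the nucleus and 262 to 400 CPM in the cytosol, with no overlap between the fractions, and differed by -1.84 (SE 0.06). H3f3b differed by -1.56 (SE 0.05), H2afx by -1.31 (SE 0.09), H1f0 by -0.92 (SE 0.07), H2afy by -0.80 (SE 0.05) and H2afz by -0.74 (SE 0.08). The spread of the members, from -1.85 to 1.02, was wider than that of the variants.

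**Figure D2:**
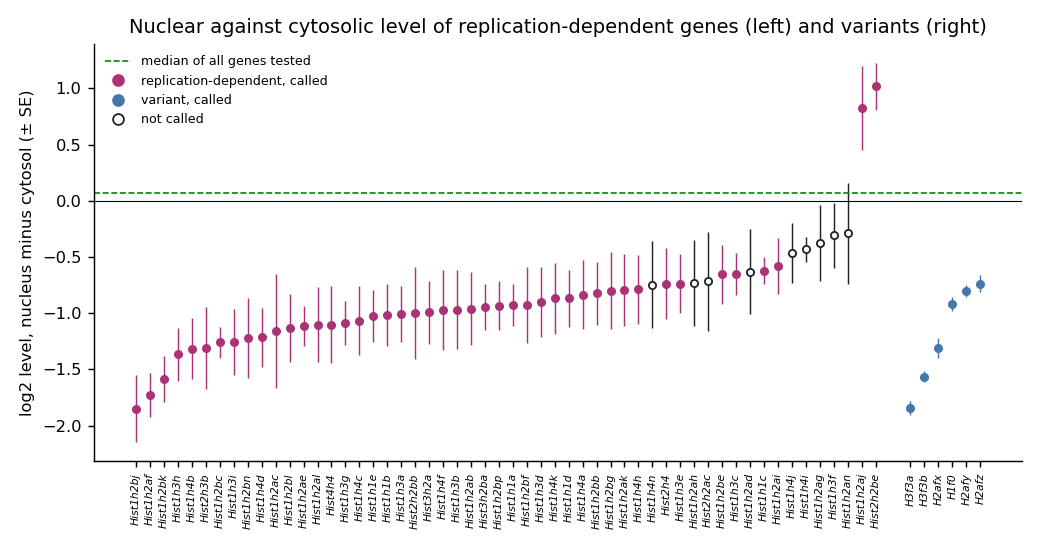
Log2 difference in level between nucleus and cytosol (point, with its SE as a bar) for the 54 tested replication-dependent genes in order of size and the 6 variants, filled where the gene was called and open where not, and the median of all genes tested as a dashed line. The members spread from -1.85 to 1.02, and all but Hist1h2aj and Hist2h2be lie below 0.

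The count of calls depended on the scaling and on single replicates, the direction of the median did not. Scaling by library size alone moved the median of all genes to 0.40 and gave 24 lower and 2 higher members with a median of -0.60; relative to the median of all genes the members were at -1.001 and -1.002 under the 2 scalings. Leaving out replicate 2 left 20 members called, leaving out replicate 3 left 27 and leaving out replicate 4 left 29. Within the pairs, 36 members were lower in replicates 1-2 (median -1.28), 16 in replicates 3-4 (median -0.84) and 4 in replicates 5-6 (median -0.61).

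Summed within each culture, the members' level in the nucleus was lower than in the cytosol in 16 of 18 cultures, by -1.41 to 0.46 on the log2 scale (median -0.61), and both extremes were the 120 min cultures of replicates 3 and 4. In the 16 cultures of the 8 conditions it was lower in 15, by -1.01 to 0.03 (median -0.61). The summed level of the variants was lower in 18 of 18 cultures (median -0.88). The sum of 10 RNAs that have no poly(A) tail (Rn7sk, Rmrp, Rpph1, Terc, Rny1, Rny3, Rnu11, Rnu12, Rn7s1 and Rn7s2, a list chosen after values had been seen) ran the other way, with a median of 1.61. Of the 8 of these RNAs tested, Terc, Rmrp, Rnu11 and Rnu12 were higher in the nucleus and Rny1, Rny3 and Rpph1 lower.

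Genes whose products make or destroy histone mRNA were given as a fixed list of 20. Of these, 8 were lower and 2 higher in the nucleus, against 29.6% lower and 36.8% higher of all genes tested. The same shares of all genes apply to the further lists of this paragraph. Lsm10, a part of the U7 particle that directs the cut after the stem-loop, differed by -1.59 (SE 0.10), Lsm1, which acts in the decay of histone mRNA, by -1.37 (SE 0.05) and the cap-binding protein gene Ncbp2 by -1.26 (SE 0.05). Slbp itself differed by -0.63 (SE 0.05). The summed level of the list ran the other way and was higher in the nucleus in all 18 cultures (median 0.36). Srrt, which joins the cap-binding complex, was higher (0.73, SE 0.06), as was Upf1 (0.62, SE 0.07), a helicase of mRNA decay. Of 12 genes of S phase, 5 were lower and 1 was higher, with Tyms (-1.12, SE 0.05), E2f1 (-0.90, SE 0.05) and Pcna (-0.74, SE 0.05) at the smallest adjusted p, and their summed level was lower in 11 of 18 cultures (median -0.03). A further 5 tested variants held 3 lower genes, H1fx (-1.24, SE 0.12), H2afy2 (-1.01, SE 0.06) and Cenpa (-0.56, SE 0.06).

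The membrane fraction was compared with the cytosol in the same way. There 6 of 54 members were higher and 0 were lower, against 24.0% and 10.7% of all genes (34.7% in either direction); the difference between these shares was not tested. Of these 6, Hist1h2ag (1.17, SE 0.32), Hist1h2af (0.99, SE 0.18), Hist1h2ak (0.87, SE 0.29) and Hist1h2ab (0.69, SE 0.29) encode H2A and Hist1h2bf (0.68, SE 0.30) and Hist1h2be (0.66, SE 0.25) H2B. Hist1h2af was at 3.20 to 7.504 CPM in the membrane and 1.82 to 4.97 CPM in the cytosol, higher in 16 of 18 cultures, and Hist1h2ag at 0.113 to 1.49 CPM and 0.124 to 0.684 CPM, higher in 15 of 18. All 14 tested H2A genes, these 4 included, overlap another gene on the other strand. The 75-base windows found in no other gene were 22.4% in Hist1h2ag, 29.5% in Hist1h2af, 73.0% in Hist1h2ak and 44.6% in Hist1h2ab.

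The median of the members was 0.20 in the membrane, that of all genes -0.11, and with library size alone the members' median turned to -0.13 with 2 higher and 3 lower members, 2 of which were among the 6 called before. No H1, H3 or H4 gene passed the test (edgeR quasi-likelihood), with medians of -0.01, 0.10 and 0.19. As CPM summed within each culture, which scales by library size alone, H1 was lower in the membrane in 16 of 18 cultures (median -0.40). On this scale H3 was lower in 13 and H4 in 9 of the 18. H2B was lower in 9 (median -0.05) and H2A in 3 of the 18 (median 0.28). Leaving out a replicate left 3 to 5 calls, 3 without replicate 2 and 3 without replicate 4. Among the variants H3f3b was lower in the membrane (-0.64, SE 0.05), at 518 to 1253 CPM against 1140 to 2157 CPM in the cytosol. Slbp was lower (-0.67, SE 0.05) and Mif4gd, whose product binds Slbp, higher (0.69, SE 0.05), and the other 18 genes of the processing list were not called.

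The second comparison asked whether the level of the members moved with the time in 4sU. By the labels the dose was higher at 20 min than at 120 min, so time was not tested apart from dose in replicates 3-4. The 120 min cultures of this pair, whose dose is not settled, were left out of the main fraction comparison and are used here. Between 20 and 120 min in replicates 3-4, 1 of 54 members was called in the nucleus (2.41% of all genes were higher and 1.86% lower, 4.27% in all). In the cytosol 0 members were called (edgeR; 0.365% of all genes higher, 0.302% lower, 0.667% in all), with 0 at an unadjusted p under 0.05. In the membrane 0 were called (edgeR; 0.227% higher, 0.196% lower, 0.423% in all), with 7 at an unadjusted p under 0.05, and in whole cells 0 (edgeR; 0.429% higher, 0.365% lower, 0.794% in all), with 0 at an unadjusted p under 0.05. The member called in the nucleus was Hist1h2bk, at 0.331 and 0.340 CPM at 20 min and 0.765 and 1.71 CPM at 120 min, a log2 difference of 2.06 (SE 0.63, edgeR adjusted p = 0.0460). The call was lost on leaving out any 1 of the 6 replicates, those outside the contrast included. The medians of the members were 0.65, 0.23, 0.72 and -0.36 in nucleus, cytosol, membrane and whole cells. They differed in sign between the fractions, and the test of a difference in this change between nucleus and cytosol called 0 members and 0 of all genes.

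Between 60 and 120 min in whole cells of replicates 5-6, 0 of all genes passed the test (edgeR), while the median of the members was -1.58 and 34 members had an unadjusted p under 0.05. Without the whole-cell library of 60 min, replicate 5, this median was 0.32. At 20 min, where replicates 1 and 2 and replicates 3 and 4 shared dose and time, 0 members differed between the pairs in whole cells (7.7% of all genes higher in replicates 3-4, 13.5% lower), and the variants H2afy (0.76) and H3f3b (0.63) were higher in replicates 3-4.

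The largest differences in the level of the members lay between replicate pairs. At 60 min in the membrane 39 of 54 members were higher in replicates 5-6 than in replicates 3-4 and 0 were lower (14.3% of all genes were higher and 6.67% lower), with a median of 2.06. In whole cells 30 were higher (8.47% of all genes higher and 9.19% lower, median 2.00), in the nucleus 26 (10.4% and 8.06%, median 2.06) and in the cytosol 11 (17.7% and 14.2%, median 1.42), and 0 were lower in each (edgeR quasi-likelihood, 0 of 54 at the thresholds above). The median of all genes was 0.01 to 0.13 in the 4 fractions and that of the variants -0.82 to 0.51.

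**Figure D3:**
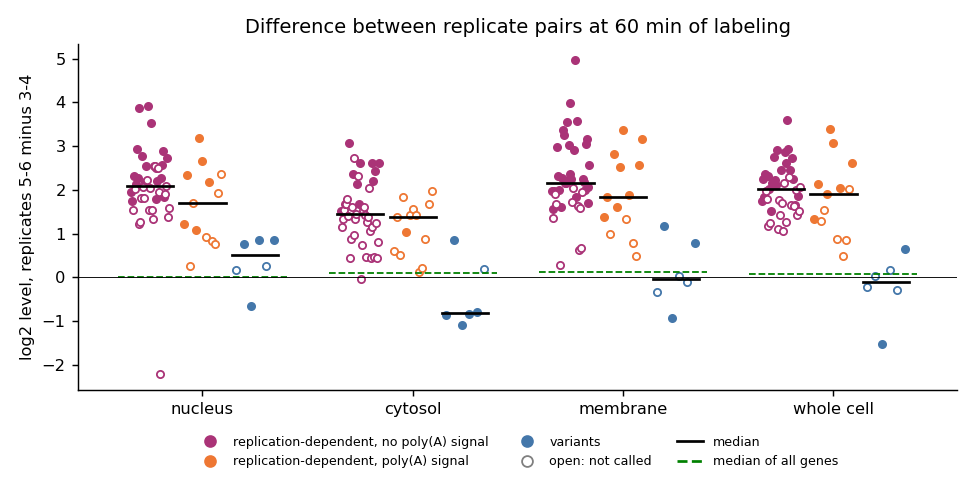
Log2 difference in level between replicates 5-6 and 3-4 at 60 min in each fraction, 1 point per gene, for replication-dependent genes without and with a poly(A) signal and for the variants, with the median of each as a bar and that of all genes as a dashed line. Filled points are called genes. The members' medians lie above that of all genes in each fraction, whether or not a poly(A) signal is annotated.

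Individual genes showed how the pairs differed. Hist1h1c in whole cells was at 5.74 and 11.9 CPM in replicates 3 and 4 and at 27.7 and 14.8 CPM in replicates 5 and 6, and Hist1h2bc at 2.55 and 5.14 CPM against 15.5 and 9.29 CPM. Both pairs were apart in these 2 genes, with replicate 5 the highest. In Hist1h4d, at 0.836 and 3.78 CPM against 17.9 and 3.01 CPM, the pairs overlapped and replicate 5 alone stood out. The largest whole-cell differences were those of Hist1h2ad (3.59, SE 0.86), Hist1h4h (3.396, SE 0.87) and Hist1h4j (3.07, SE 0.76).

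In the membrane 12 of 12 H4 genes, 9 of 10 H3 genes, 8 of 13 H2B genes, 7 of 14 H2A genes and 3 of 5 H1 genes were higher in replicates 5-6. The largest differences were those of Hist1h2an (4.98, SE 1.28), Hist1h4f (4.00, SE 0.93) and Hist1h2ad (3.57, SE 0.91). Of their 75-base windows 15.4, 75.4 and 34.5% were found in no other gene. Hist1h4f was at 0.202 and 0.300 CPM in replicates 3-4 and between 2.80 and 4.67 CPM in replicates 5-6. In the nucleus Hist1h2ac (3.93, SE 1.12), Hist1h2ab (3.88, SE 1.02) and Hist1h2bj (3.52, SE 0.94) led, and in the cytosol Hist1h2ab (3.07, SE 0.89), Hist1h2al (2.62, SE 0.80) and Hist2h2bb (2.62, SE 0.97). Hist1h2ab was at 1.65 and 2.01 CPM in the cytosol of replicates 5-6 and at 0.0853 and 0.258 CPM in that of replicates 3-4. Some members differed little, such as Hist1h2af in the membrane (0.29, SE 0.49) and Hist1h2bj in the cytosol (-0.04, SE 0.69).

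The difference was seen in members of either annotated structure, a split that again depends on how far the annotation reaches. In whole cells the median was 1.90 in members with a poly(A) signal and 2.01 in the others, in the nucleus 1.69 and 2.08, in the cytosol 1.37 and 1.44, and in the membrane 1.85 and 2.15. H2afx, the variant with a stem-loop, was higher in replicates 5-6 in the nucleus (0.75, SE 0.25), the cytosol (0.86, SE 0.25) and the membrane (1.16, SE 0.25), with 0.02 (SE 0.25) in whole cells. H2afy was lower in all 4 fractions, by -1.52 in whole cells, -0.65 in nuclear, -1.09 in cytosolic and -0.94 in membrane RNA. In the cytosol H2afz (-0.87), H3f3a (-0.85) and H3f3b (-0.80) were lower too.

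Some RNAs without a poly(A) tail, from the list chosen after values had been seen, were higher in the same pair. At 60 min 4 of the 8 tested were higher in replicates 5-6 in whole cells (median 2.81), 6 in the nucleus (median 3.26), 3 in the cytosol (median 2.54) and 4 in the membrane (median 3.70). In whole cells of 60 min their summed level was 36.1, 230.4, 2263 and 198.7 CPM in replicates 3, 4, 5 and 6, and that of the members 39.6, 96.8, 372 and 96.7 CPM. In both sums replicate 6 lay below replicate 4, and replicate 5 alone lay above both libraries of replicates 3-4. Over all times and fractions the summed level of these RNAs was 6.7 to 884 CPM in replicates 1 to 4 and 138 to 3458.5 CPM in replicates 5-6. Rn7s1 was at 0 in all whole-cell libraries and Rn7s2 in 15 of 18. Their part in the result was not tested. Of the 12 S-phase genes, 0 were higher and 4 lower in whole cells and 1 and 0 in nuclear RNA. In cytosolic RNA 0 were higher and 6 lower, and in membrane RNA 1 and 3. Of all genes, 8.47% were higher and 9.19% lower in whole cells and 10.4% and 8.06% in the nucleus. In the cytosol these shares were 17.7% and 14.2%, and in the membrane 14.3% and 6.67%.

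Single libraries and the scaling decided part of this result. With library size alone 29 members were called in the cytosol in place of 11, and in the nucleus 26 were higher and 1 lower. Without the whole-cell library of 60 min, replicate 5, 1 member was called in whole cells and the median was 0.22. Without all libraries of replicate 5, 2 members were called in the nucleus (median 1.22), 3 in the cytosol (median 1.33) and 9 in the membrane (median 1.91). Without replicate 3 the calls were 5 for whole cells, 7 for nuclear, 21 for cytosolic and 20 for membrane RNA, and without replicate 4 they were 37, 18 (1 of them lower), 4 and 14. Without replicate 2, which enters only through the common spread, 24 members were called in the membrane, and without replicate 6 the cytosol gave 7. In the 4 fractions the median of the members stayed above 0 in each of these.

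**Figure D4:**
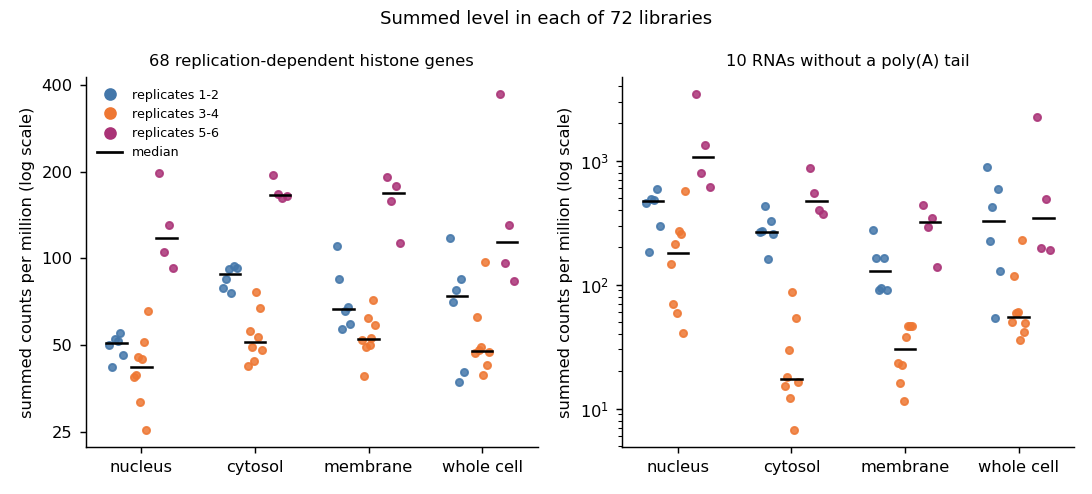
Summed level (CPM, log scale) of the 68 replication-dependent genes, left, and of 10 RNAs without a poly(A) tail, right, in each of the 72 libraries by fraction and replicate pair, with the median of each pair as a bar. In nucleus, cytosol and membrane the members' sums of replicates 5-6 lie above all those of replicates 1 to 4, and in whole cells both overlap.

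Across all labeling times the summed level of the members was 25.4 to 65.9 CPM in the nucleus of replicates 1 to 4 and 92.6 to 198 CPM in that of replicates 5-6. In the cytosol the ranges were 42.4 to 94.4 and 162 to 194 CPM, and in the membrane 39.2 to 110 and 113 to 191 CPM. These do not overlap, whereas in whole cells 37.2 to 117 CPM and 83.1 to 372 CPM do. Replicates 5-6 were labeled for 60 and 120 min only, so these ranges compare pairs at partly different times. All 5 classes of histone had their highest median in replicates 5-6 in each of the 4 fractions. In the cytosol H4 was at a median of 23.5 CPM in replicates 1-2, 7.41 CPM in replicates 3-4 and 35.4 CPM in replicates 5-6, and H1 at 20.9, 18.2 and 43.8 CPM.

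The last comparison concerned how much of the histone RNA was new. The share of new RNA was taken as the T2C conversions over all T positions in exons, divided by the conversion rate of the library. This rate ranged from 2.07 to 12.2%. Since sequencing errors were not subtracted and the rate is itself an estimate, shares can exceed 100%. The T counts hold reads with several possible origins, so reads of near copies can enter for more than one gene. A base that differs between copies as T and C could then be counted as a conversion, which was not tested. A gene with 400 T positions and 0 conversions may have a share of up to 6.13% at the highest conversion rate and 36.2% at the lowest, a limit that covers counting error only. Pooled over the members there were 10051 to 131407 T positions per library.

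The pooled share of the members lay above the median over all genes in 18 of 18 libraries in each of the 4 fractions. For the variants this was so in 8 libraries of the nucleus, 9 of the cytosol, 8 of the membrane and 8 of the whole cell. In whole cells of 15 min the pooled share of the members was 15.1 and 18.6%, that of the variants 3.8 and 4.1%, and the median of all genes 1.8 and 2.4%. After 40 min it was 14.2 and 18.3% in the members and 6.1 and 6.3% over all genes. After 120 min it was 31.9 and 38.3% in replicates 3-4, where all genes were at 24.7 and 25.5%. In replicates 5-6 it was 25.1 and 50.7%, where all genes were at 18.2 and 40.8%. The study found that the labeled share of nuclear RNA fell with distance from the 3' end, mostly at short labeling times. Most members are single-exon genes, and the comparison with all genes was not matched for length. With no unlabeled library used, the share read in the members without 4sU was not measured.

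**Figure D5:**
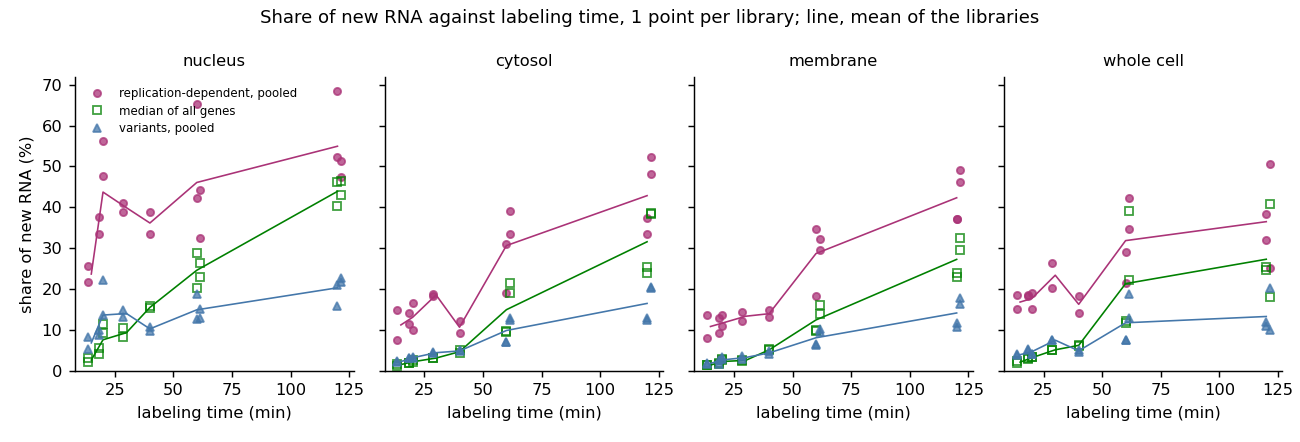
Share of new RNA (%) against labeling time (min) in each fraction for the pooled members, the pooled variants and the median over genes with 400 or more T positions, 1 point per library with replicates 5-6 set slightly to the right, and the mean as a line. The members lie above the median of all genes in all 72 libraries, and the variants lie below it in all libraries of 60 and 120 min and, at 40 min, on average in nucleus, membrane and whole cell.

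The pooled share was also computed without the deepest gene, and over the members with 50% or more unique windows. These members still share part of their sequence with other genes, so reads of near copies were reduced and not removed. Without Hist1h1c it lay above the median of all genes in 18 of 18 libraries of each fraction, and so did the pooled share over members with 50% or more unique windows. The median over the single members with 400 or more T positions lay above that of all genes in 18 libraries of the nucleus, 15 of the cytosol, 17 of the membrane and 16 of the whole cell, from 3 to 60 members per library. By class, the whole-cell shares of 15 min were 21.9% for H1, 12.1% for H2A, 12.02% for H2B, 16.4% for H3 and 20.6% for H4 (means of 2 libraries).

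In the nucleus the pooled share of the members was 21.6 and 25.7% at 15 min and 47.4 to 68.5% at 120 min, and in the cytosol 7.62 and 14.8% and 33.6 to 52.3%. It was higher in the nucleus than in the cytosol of the same culture in 16 of 18 cultures, by a median of 19.5 percentage points, with all 4 cultures higher at 20 min, 3 of 4 at 60 min and 3 of 4 at 120 min. The variants were higher in the nucleus in 18 of 18 cultures, by a median of 5.71 points. The membrane gave a share above that of the cytosol in 8 of 18 cultures for the members and in 0 of 18 for the variants.

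Few members were deep enough for a test of single genes. In all 18 libraries of a fraction, 400 T positions were reached by 2 members for the nucleus, 10 for cytosol, 11 for membrane and 5 for whole cells, and by Hist1h1c and Hist1h4i alone in all 54 fractionated libraries. At 20 min Hist1h1c had shares of 31.8 to 61.2% in the nucleus (median 47.7, n = 4) and 13.9 to 22.3% in the cytosol (median 16.2), with no overlap. Its log2 difference was 1.37 (SE 0.31) and passed the test (limma, adjusted p = 0.0002208), as did 75.7% of the 11551 genes tested (0.658% were lower, 76.4% in either direction). Hist1h4i had 30.9 to 78.9% in the nucleus and 7.2 to 17.9% in the cytosol, a difference of 2.22 (SE 0.42). All 6 variants were called at this time too, from 0.82 (H2afy, SE 0.20) to 2.14 (H3f3b, SE 0.16).

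At 60 min Hist1h4i was still higher in the nucleus (1.02, SE 0.42, limma adjusted p = 0.0391), with 44.6 to 75.3% against 20.0 to 35.9%. Hist1h1c, at 38.5 to 85.3% and 26.5 to 62.4%, was not called (0.31, SE 0.31, adjusted p = 0.407), and 51.0% of all genes were higher (54.8% in either direction). Of the variants H2afz (1.16, SE 0.16), H2afy (1.09, SE 0.20), H3f3b (0.54, SE 0.16) and H3f3a (0.53, SE 0.19) were called. The call of Hist1h4i at 60 min was lost without each of replicates 3, 4, 5 and 6, with limma adjusted p from 0.0644 to 0.314 and log2 differences from 0.76 to 1.29. At 120 min neither member nor any variant was called in replicates 5-6 (limma, 1.09% of all genes higher, 0.173% lower, 1.26% in all), where Hist1h1c differed by 0.10 (SE 0.44) and Hist1h4i by 0.28 (SE 0.59). Between membrane and cytosol at 60 min 0 of both members were called (limma, 1.19% of all genes higher, 8.66% lower) with -0.36 (SE 0.31) and 0.69 (SE 0.42), and H2afy was higher (0.66, SE 0.20).

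The shares of Hist1h1c over time are given beside those of 2 deep variants, with no test of the courses. In whole cells Hist1h1c had 19.0 to 32.4% at 15 min, 12.1 to 27.7% at 20 min, 23.7 to 39.7% at 30 min, 29.5 and 31.2% at 40 min, 35.4 to 57.3% at 60 min and 17.4 to 48.7% at 120 min. H2afz, counted from 245056 to 572578 T positions, had 1.0 to 1.4% at 15 min, 4.7 to 12.4% at 60 min and 4.6 to 14.2% at 120 min. H3f3b was in between, with 6.3 to 7.2% at 15 min, 9.4 to 21.7% at 60 min and 11.3 to 23.4% at 120 min. Hist1h1c exceeded H2afz and H3f3b at 15 and 60 min with no overlap between genes.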

How the data were processed

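Poly(A) RNA of 72 libraries was sequenced by the authors, aligned with STAR 2.7.6 to mm10 (GRCm38) and counted per gene with HTSeq 0.11.1; RSEM 1.3.3 is also named in the labels. The deposited counts are raw read counts per gene, and lines naming no gene (30.4 to 48.8% of the counts of each file) were left out. The deposited conversion files give, as counts, T positions and T2C conversions per gene, and the deposited conversion rate per library is a fraction estimated by the authors. The deposited ratio of conversions to T positions, divided by that rate by the authors, was recomputed here from the counts. Members and lists were chosen with earlier results of these data known.

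Levels were tested with edgeR 4.0.16 (quasi-likelihood, TMM, low-count filter) over 36 groups of fraction, time and pair, with Benjamini-Hochberg adjustment over all genes and calls at adjusted p under 0.05 and over 0.5 on the log2 scale. Shares were tested with limma 3.58.1 on log2(share + 0.01), for genes with 400 T positions in all 54 libraries, so fold changes of low shares are understated. DESeq2 1.42.0 was an alternative. Named genes were the 12 members with the highest whole-cell mean, up to 3 called members per direction and the variants. Fractions of 1 culture deviated together for membrane and cytosol (correlations 0.21 to 0.70, over 0.1 in 9 of 9), and for nucleus and cytosol in 7 of 9. Scripts were tested on simulated data.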

Additional observations from a re-analysis of the deposited data

Results flagged for a closer look

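The summed level of the 10 RNAs without a poly(A) tail stood apart at 60 min in replicate 5, at 3458.5 CPM in the nucleus and 2263.2 CPM in whole cells, each the highest of 4 libraries by a gap large against the range of the group. Of 60 groups tested in this way 2 were flagged, and chance flags about 1 in 20, a rate that these flags did not exceed. The list of these RNAs was chosen after values had been seen, so the flags are not independent of that choice.

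Some members with almost no counts held T positions in the conversion files of the 18 whole-cell libraries. These were Hist2h2aa2 (13927 T positions beside 16 counts over all 72 libraries), Hist2h2aa1 (2549 beside 0), Hist1h2br (16642 beside 0), Hist1h4m (9561 beside 4), Hist1h2bq (3381 beside 1), Hist2h3c1 (11093 beside 0), Hist1h2ao (7776 beside 6) and Hist1h2ap (5980 beside 1). Their transcripts had from 0 to 12.4% of 75-base windows found in no other gene, and whether the reads came from these genes was not tested.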

How the results depend on the processing

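Counts of called members depended on the setting, and the cause was not tested. Leaving out 1 replicate at a time gave 20 to 47 calls between nucleus and cytosol, 3 to 5 between membrane and cytosol, 0 to 0 between 20 and 120 min, 0 to 2 between pairs at 20 min, and at 60 min 1 to 40 (whole cell), 2 to 26 (nucleus), 3 to 21 (cytosol) and 9 to 32 (membrane); for shares it gave 2 to 4 at 20 min and 0 to 1 at 60 min. Library size alone gave 26 calls between nucleus and cytosol and 29 in the cytosol at 60 min. Replicates 3-4 and 5-6 alone gave 18 and 4 between nucleus and cytosol, and the 3 pairs alone 3, 3 and 1 between membrane and cytosol. Without the low-count filter there were 7 (nucleus) and 4 (membrane) between 20 and 120 min, 9 between 60 and 120 min, and 42 (nucleus) and 31 (cytosol) at 60 min. Without the whole-cell library of 60 min replicate 5 there were 1 in whole cells, 19 in the cytosol and 41 in the membrane. A replicate block gave 4 (nucleus) and 1 (membrane) between 20 and 120 min, and a block on the culture 47 between nucleus and cytosol and 6 between membrane and cytosol. No paired analysis was possible because the pairs compared at 20 and 60 min share no replicate numbers. For shares at 20 min, replicates 1-2 alone gave 1 call, a minimum of 100 T positions 8 and of 1000 T positions 1; at 60 min replicates 3-4 alone, 5-6 alone and 1000 T positions gave 0. With 100 T positions the whole-cell median share of the members was 7.92% at 20 min and 7.94% at 40 min. The sign turned for Hist1h2aj between nucleus and cytosol (-0.46 in replicates 1-2 and -0.24 in 5-6), for Hist1h1e in whole cells at 60 min (-0.039 without replicate 5, -0.029 without its whole-cell library, and -0.039 to 2.65 over the left-out replicates) and for the share of H2afy2 at 60 min (-0.03428 in replicates 5-6).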
